A study of Mus musculus with 2 samples.

Results

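Ano1, P2ry1, P2rx2, P2rx7, Itpr1, Itpr2 and Itpr3 were followed through single nuclei of the postnatal mouse cochlea. These 7 of the 33696 genes in the count tables were chosen by symbol, as the chloride channel, the ATP receptors and the calcium store channels linked to spontaneous activity before hearing starts. Each library was made from pooled tissue that the labels call basement membranes of the cochlea, dissected at postnatal day 7 from mice given tamoxifen on day 1. The library called Serpine2 cOE came from 20 cochleae with the genotype Lgr5EGFP-CreER/+ and Serpine2loxp/loxp, and the control library from 19 cochleae with Serpine2loxp/loxp and no Cre driver. Both groups carried the loxP-flanked Serpine2 alleles and received tamoxifen, and the driver acts in cells that express Lgr5. The name cOE stands for conditional overexpression in the series, and the labels do not say what the alleles express once Cre has acted. With 1 library per group no test between the groups was possible, and every interval below covers counting error only, not differences between animals.

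Koelliker organ is a transient epithelium beside the inner hair cells that is present before hearing starts. Its cells release ATP through connexin hemichannels, ATP opens P2X channels and acts on P2Y receptors coupled to phospholipase C, and the inositol trisphosphate formed opens store channels encoded by the Itpr genes. The calcium released opens the chloride channel TMEM16A, the product of Ano1, and the efflux of chloride and potassium that follows depolarises the neighbouring inner hair cells.

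The cOE library held 12014 barcodes with 40429121 UMIs (unique molecular identifiers, 1 per captured RNA molecule), and the control library 9820 barcodes with 31158971 UMIs. After filters on genes, mitochondrial share and doublets, 9777 and 8250 nuclei were kept, with medians of 2401 and 2247 UMIs. The libraries shared 27 barcodes, 15 of them among the kept nuclei. Nuclei were sorted into classes by marker genes that include none of the 7 (at least 3 markers of a list and at least 2 more than of any other list). This gave 866 and 466 Koelliker organ-like nuclei, 153 and 93 supporting cell-like nuclei, 465 and 395 hair cell-like nuclei, and 5584 and 5549 other nuclei in the cOE and the control library. Although the cell type label names hair and supporting cells, the mesenchymal gate was larger, with 2570 and 2257 nuclei, and it counts among the other nuclei. A further 2709 (27.7%) and 1747 (21.2%) nuclei held markers of several lists without a clear lead and were left out.

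The gates differed in how their nuclei spread over clusters. Of the 10 Koelliker organ markers 8 were at least 2-fold higher in that gate than in all nuclei outside it. Of the 12 supporting cell markers 10 were, and of the 17 hair cell markers 16 were. Nuclei left out for mixed markers were not used, and a marker counted only if at least 10% of the gate's nuclei held it. The gates were set by these same markers, so these counts cannot show how clean a gate is. Clustering without the 7 genes gave 28 clusters, numbered from 0 to 27, and 15 of them could be named from the same markers. Cluster 3 held the largest share of the Koelliker organ-like nuclei, 50.7% of the gate in the cOE library and 45.7% in the control library. Supporting cell-like nuclei were spread widely: clusters 4, 20 and 22, which carried the supporting cell names, held only 35.9% and 24.7% of that gate. Values in those clusters therefore stand beside the gate's values below. Levels are given as CPM, UMIs of the gene per 1000000 UMIs of the class, and only compared within a gene, since the 7 genes differ in length.

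Ano1 lies at chr7:144142278-144305711 on the minus strand of GRCm39. In the Koelliker organ-like nuclei it stood at 2197 CPM in the cOE library (7306 UMIs, 95% Poisson interval 2147 to 2248) and 2122 CPM in the control library (3964 UMIs, 2056 to 2189). Supporting cell-like nuclei held 797 and 1050.3 CPM, hair cell-like nuclei 419 and 449.8 CPM, and the other nuclei 144 and 116 CPM. The order of the 4 classes was the same in both libraries, and no interval of one class reached that of the next. On the log2 scale the Koelliker organ-like nuclei exceeded the other nuclei by 3.93 (3.86 to 4.001) in the cOE library and 4.19 (4.10 to 4.27) in the control library, 15.2-fold and 18.2-fold. Ano1 was the leading gene of the Koelliker organ gate by fold, ahead of Spock1 and Isl1.

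Counts per nucleus showed that the Koelliker organ gate was not uniform for Ano1. The median was 4 UMIs per nucleus in the cOE library and 3 in the control library, 33.9% and 36.7% of the nuclei had none, and the highest nucleus had 253 and 209. Within cluster 3 only 1.35% and 2.35% of nuclei had no Ano1 UMI, and the medians were 9 and 12. Every nucleus of cluster 25 had at least 5 Ano1 UMIs, with medians of 24 and 28 over its 81 and 33 nuclei. After thinning each nucleus to 1000 UMIs, which left out 20 shallower nuclei of the gate in each library, 58.7% (Clopper-Pearson 95% interval 55.3 to 62.1) and 53.8% (49.1 to 58.5) of the Koelliker organ-like nuclei kept an Ano1 UMI. The share was 4.44% and 1.98% in the macrophage-like nuclei, a type that should lack the gene, at median depths of 1651.5 and 1576 UMIs against 2984.5 and 3207.5 in the Koelliker organ gate. By level the macrophage-like nuclei of the cOE library held 423 CPM, close to the 419 CPM of the hair cell gate, from 87 UMIs in 7 nuclei with up to 38 in 1 nucleus. Those of the control library held 32.7 CPM from 7 UMIs.

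**Figure D1:**
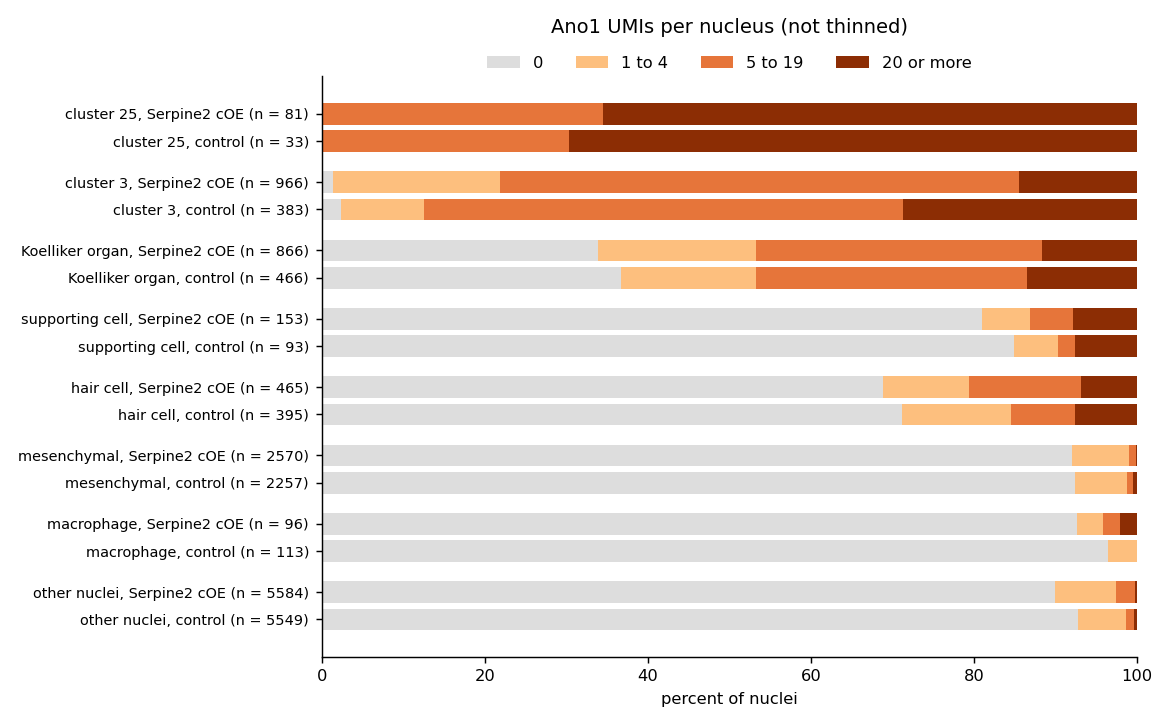
Percent of nuclei (horizontal axis) with 0, 1 to 4, 5 to 19, or 20 or more Ano1 UMIs, 1 bar per class or cluster and library with its number of nuclei. Cluster 25 has no nucleus under 5 UMIs and cluster 3 few at 0, while the Koelliker organ gate as a whole has 33.9% and 36.7% of its nuclei at 0.

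Across the 26 clusters with at least 50000 UMIs in each library, Ano1 was highest in cluster 25, at 6980 CPM in the cOE library and 8033 CPM in the control library. Cluster 3 followed with 3513 and 4200 CPM, and cluster 2, named roof epithelium, with 906 and 639.7 CPM. Each of these 3 stood above the next in both libraries beyond the counting intervals, and the median cluster had 44.9 and 40.2 CPM. Cluster 2 had a median of 9532 UMIs per nucleus, and 209 of its nuclei held markers of several lists, 63 lay in the mesenchymal and 23 in the roof epithelium gate. The roof epithelium gate as a whole held 60.5 and 38.4 CPM, and cluster 17, also named roof epithelium, 20.0 and 12.3 CPM. Cluster 3 alone supplied 58.8% and 56.5% of all Ano1 UMIs from 9.9% and 4.6% of the nuclei. Cluster 25 stayed unnamed because it carried 5 supporting cell markers (Hey2, Lfng, Emid1, Fabp7 and Sox2) and 4 Koelliker organ markers without meeting the naming rule. Of its nuclei 26 lay in the Koelliker organ gate, 17 in the supporting cell gate and 68 held markers of several lists. It is also the source of most Ano1 in the supporting cell gate: 9 of the 153 cOE nuclei and 8 of the 93 control nuclei lay in cluster 25 and gave 55.8% and 96.0% of the gate's Ano1 UMIs. Supporting cell-like nuclei inside clusters 4, 20 and 22 had 267 CPM (84 UMIs in 9 of 55 nuclei) and 90.9 CPM (12 UMIs in 5 of 23 nuclei). Their ratio to the other nuclei on the log2 scale was 0.89 in the cOE library and -0.36, below 0, in the control library. The gate as a whole gave 2.47 and 3.17.

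Ano1 in the hair cell-like nuclei lay mostly in the deepest ones. Nuclei with at least 10000 UMIs, 115 in the cOE and 122 in the control library, held 85.3% and 91.7% of the Ano1 UMIs of that gate. Their Ano1 level was 601 and 611 CPM, against 152 and 115 CPM in the shallower hair cell-like nuclei. The 10 Koelliker organ markers moved the same way: their summed level was 1932 and 1504 CPM in the deep and 597 and 557 CPM in the shallower nuclei, with 1 of the 10 at 0 in each set. So did the 12 supporting cell markers, at 964 and 994 CPM against 386 and 425 CPM. Itpr1 (443 and 431 against 130 and 127 CPM), Itpr2 (128 and 168 against 42.5 and 66.3 CPM) and P2rx7 (19.6 and 21.1 against 7.35 and 6.55 CPM) were also higher in the deep nuclei. P2rx2 was not (19.3 and 13.7 against 21.0 and 18.2 CPM), and P2ry1 and Itpr3 differed in direction between the libraries. The 17 hair cell markers summed to 3028 CPM in the deep nuclei of each library and to 7883 and 6617 CPM in the shallower ones, none at 0. The part of these markers and of depth in the Ano1 level of hair cell-like nuclei was not tested.

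The 300-base promoter windows of Ano1 and P2ry1 are shown because these 2 genes were both at least 2-fold higher in the Koelliker organ-like nuclei and had cluster 3 among their 3 highest clusters in each library. They are the RefSeq windows from 250 bases before to 50 bases after the start site, on GRCm38.p6, at chr7:144738524-144738823 (minus strand) and chr3:61002535-61002834 (plus strand), written 5′ to 3′ with each GGGCGG, or CCGCCC on the opposite strand, in capitals.
Ano1: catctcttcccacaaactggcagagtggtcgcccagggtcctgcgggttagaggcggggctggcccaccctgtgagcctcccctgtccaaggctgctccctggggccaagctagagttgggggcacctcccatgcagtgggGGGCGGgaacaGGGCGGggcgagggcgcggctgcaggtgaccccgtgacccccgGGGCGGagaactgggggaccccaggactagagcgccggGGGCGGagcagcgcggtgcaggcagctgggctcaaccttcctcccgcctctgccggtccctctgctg
P2ry1: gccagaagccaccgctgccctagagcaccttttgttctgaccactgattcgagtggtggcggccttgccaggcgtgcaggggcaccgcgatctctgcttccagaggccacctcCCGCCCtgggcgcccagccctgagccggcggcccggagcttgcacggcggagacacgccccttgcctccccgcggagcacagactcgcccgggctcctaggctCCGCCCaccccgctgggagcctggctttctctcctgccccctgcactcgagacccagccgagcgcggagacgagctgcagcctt
The Ano1 window holds 4 GGGCGG matches and the P2ry1 window 2, at 71.7% and 70.7% G and C against a median of 52.7% over all 32851 promoters in the table. That motif is common: 35.7% of those promoters hold it on either strand. Neither window has TATAAA, which 13.6% of all promoters hold, or CCAAT, which 37.4% hold, and CANNTG, held by 72.3%, is found in the Ano1 window at 2 places and not in the P2ry1 window. The matches are letters in a window and not shown to be sites. Promoter entries matched 5 of the 7 genes, all but P2rx2 and Itpr1.

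P2ry1, at chr3:60910159-60916403 (plus strand), encodes the P2Y1 receptor, which couples ATP and ADP to store release through phospholipase C. It had 15.9 CPM (53 UMIs, 11.9 to 20.8) in the Koelliker organ-like nuclei of the cOE library and 16.6 CPM (31 UMIs, 11.3 to 23.6) in those of the control library. The other nuclei stood at 4.62 and 4.87 CPM, so the log2 ratios were 1.79 (1.24 to 2.33) and 1.77 (1.10 to 2.41). Supporting cell-like nuclei had only 3 and 1 UMIs, and their intervals overlapped those of all other classes. Hair cell-like nuclei gave 6.37 CPM from 30 UMIs in the cOE library but 1.90 CPM from 8 UMIs in the control library. By cluster, cluster 3 was high in both libraries (17.5 and 24.8 CPM), whereas cluster 1 had 39.0 CPM from 30 UMIs in the cOE library and 8.69 CPM from 2 UMIs in the control library, a log2 ratio of 2.17 (0.19 to 5.28). Cluster 1 was led by Trdn, Rspo2 and Otoa. Otoa encodes otoancorin, a protein of interdental cells. Of the Koelliker organ-like nuclei 5.66% and 6.44% had a P2ry1 UMI, and 2.60% and 0.673% kept one after thinning, so the gene was near the limit of detection per nucleus.

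P2rx2, at chr5:110487678-110491078 (minus strand), encodes an ATP-gated cation channel known from hair cells and supporting cells of the cochlea. Its level was 16.2 and 10.7 CPM in Koelliker organ-like nuclei, 23.0 and 35.2 CPM in supporting cell-like nuclei, 20.0 and 15.2 CPM in hair cell-like nuclei, and 7.32 and 3.59 CPM in the other nuclei. All 3 classes were more than 2-fold above the other nuclei in both libraries, but none of them under every alternative. The log2 ratios were 1.15 (0.65 to 1.64) and 1.57 (0.74 to 2.35) for the Koelliker organ, 1.65 and 3.29 for supporting cells, and 1.45 (1.03 to 1.87) and 2.08 (1.51 to 2.65) for hair cells. With gates set on thinned nuclei the cOE ratios were 0.0955, 0.43 and 0.62, and the control ratio of supporting cells 0.70. Among themselves the 3 classes overlapped in their intervals, except that in the control library the Koelliker organ interval (6.54 to 16.5 CPM) lay below that of supporting cells (17.6 to 63.0 CPM). Within the hair cell gate, outer hair cell-like nuclei had 23.8 and 15.6 CPM and inner hair cell-like nuclei 5.72 CPM from 4 UMIs and 17.6 CPM from 6 UMIs. Cluster 22, named supporting cell, was at 64.1 CPM in the cOE library (24 UMIs) and 35.9 CPM in the control library (8 UMIs). The macrophage-like nuclei held no P2rx2 UMI in the cOE library and 1 in the control library. In the cOE library that is 0 of 90 thinned nuclei, which allows a share of nuclei with a UMI of up to 3.33%, taking 3 counts of the total as the limit.

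P2rx7, at chr5:122781942-122830400 (plus strand), encodes an ATP-gated channel known from macrophages and other immune cells, and it was lowest of the 4 compared classes in Koelliker organ-like nuclei. Macrophage-like nuclei had 277 CPM (57 UMIs, 210.1 to 359) in the cOE library and 416 CPM (89 UMIs, 334 to 512) in the control library. The level was 36.2 and 38.7 CPM in the other nuclei, 21.3 and 19.2 CPM in supporting cell-like nuclei, 14.7 and 16.4 CPM in hair cell-like nuclei, and 6.32 and 5.89 CPM in Koelliker organ-like nuclei. The intervals of supporting cell-like nuclei overlapped those of the other nuclei and of hair cell-like nuclei. Relative to the other nuclei the Koelliker organ ratio was -2.52 (-3.23 to -1.89) and -2.72 (-3.73 to -1.87) on the log2 scale, and the hair cell ratio -1.31 and -1.24. Cluster 21, named macrophage, held 308 and 473 CPM and stood above every other of the 26 clusters. Among these 26, the second was the unnamed cluster 6 with none of the macrophage markers in its marker set, at 69.5 and 68.8 CPM over 1133 and 1027 nuclei. Cluster 27, too small for that ranking, held 172 and 325 CPM from 5 and 12 UMIs.

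**Figure D2:**
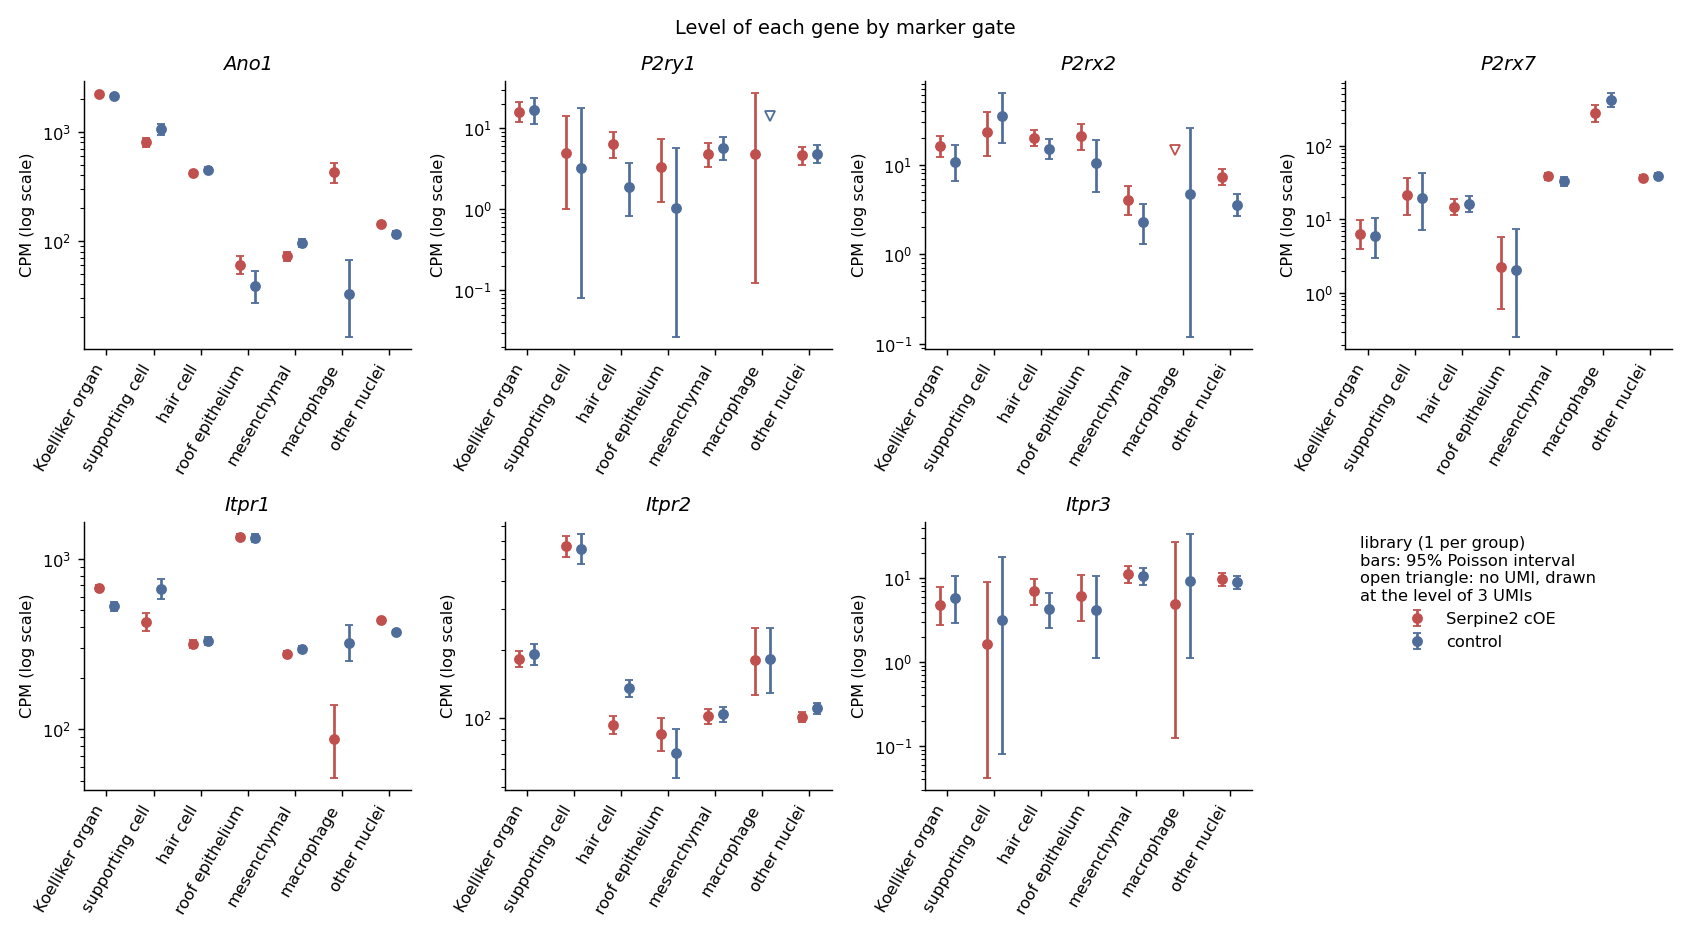
Level of each of the 7 genes in CPM (vertical axis, log scale) in 7 marker classes, with 1 point per library (red, Serpine2 cOE; blue, control) and 95% Poisson intervals; open triangles mark classes with no UMI, drawn at the level of 3 UMIs. Ano1 falls from 2197 and 2122 CPM in the Koelliker organ gate to 144 and 116 CPM in the other nuclei, P2rx7 peaks in macrophages, Itpr1 in roof epithelium and Itpr2 in supporting cells.

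Itpr1, at chr6:108190048-108528070 (plus strand), encodes the type 1 inositol trisphosphate receptor, a calcium channel of the store membrane. It was widespread: 679.9 and 529 CPM in Koelliker organ-like nuclei, 429.5 and 669 CPM in supporting cell-like nuclei, 316 and 332 CPM in hair cell-like nuclei, and 436 and 374 CPM in the other nuclei. None of the 3 classes was 2-fold from the other nuclei in both libraries. Its peak lay elsewhere, with 4464 and 3961 CPM in cluster 0, an unnamed cluster with 4 Koelliker organ markers and with Bmp4 among its 10 leading genes. The roof epithelium clusters 17 (1279 and 1278 CPM) and 24 (1218 and 1427 CPM) came next, and cluster 3 had only 128 and 144 CPM. Of the Koelliker organ-like nuclei, 91 and 60 belonged to cluster 0, and they carried Itpr1 at 3917 and 2261 CPM, against 152 and 80.6 CPM in those of cluster 3. The cluster 0 nuclei gave 1515 of the gate's 2261 Itpr1 UMIs in the cOE library and 629 of 988 in the control library. Bmp4, used here as a check marker of lateral epithelium, stood at 1065 and 1211 CPM in them, against 13.7 and 6.11 CPM in those of cluster 3. Most Itpr1 of this gate thus came from nuclei of a cluster with a lateral epithelium marker.

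Within that gate Itpr1 UMIs were less frequent in nuclei with an Ano1 UMI than in nuclei without one. After thinning, Itpr1 had a UMI in 10.5% (7.91 to 13.5) of the Koelliker organ-like nuclei with Ano1 and in 40.4% (35.2 to 45.8) of those without it in the cOE library. The control library gave 12.1% (8.24 to 16.9) and 34.0% (27.5 to 40.9). Without thinning the shares were 32.7% against 65.6% and 32.9% against 60.8%. Itpr2 had a UMI in 16.3% (13.2 to 19.8) of nuclei with and 14.04% (10.6 to 18.1) of those without Ano1 in the cOE library, and was more frequent with Ano1 in the control library, 22.1% (17.0 to 27.9) against 10.7% (6.81 to 15.7). Without thinning it was more frequent with Ano1 in each library, 48.3% against 27.6% and 49.8% against 28.1%. The gate mixes clusters that differ in both Ano1 and Itpr1. After thinning, its cluster 0 nuclei held Itpr1 in 80% and 75% and Ano1 in 13.3% and 6.67%. Its cluster 3 nuclei held Itpr1 in 7.32% and 6.67% and Ano1 in 91.3% and 94.3%. Whether the 2 genes also part within a cluster was not tested. Nuclei of 1 library are not replicates, so these shares describe the 2 libraries.

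Itpr2, at chr6:146009797-146403721 (minus strand), encodes the type 2 receptor. Supporting cell-like nuclei had the most, 567 CPM (346 UMIs, 509 to 630.3) and 554 CPM (173 UMIs, 474 to 643), followed by Koelliker organ-like nuclei at 183 and 191 CPM. Hair cell-like nuclei had 93.5 and 135 CPM and the other nuclei 101 and 110.4 CPM. The supporting cell ratio to the other nuclei was 2.48 (2.31 to 2.65) and 2.33 (2.09 to 2.56) on the log2 scale. Unlike Ano1, this level came from the nuclei in the clusters with supporting cell names: 80.3% and 68.8% of the gate's Itpr2 UMIs lay in clusters 4, 20 and 22, where it reached 882 and 902 CPM. Clusters 4 (1180.4 and 1650.0 CPM), 20 (599 and 559 CPM) and 22 (478 and 574 CPM) were the first 3 clusters in both libraries, cluster 4 beyond the counting intervals. The Koelliker organ ratio, 0.85 and 0.79, did not reach 2-fold.

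Itpr3, at chr17:27275971-27343866 (plus strand), encodes the type 3 receptor and gave few UMIs in every class. Its level was 4.81 and 5.89 CPM in Koelliker organ-like nuclei (16 and 11 UMIs), 7.01 and 4.27 CPM in hair cell-like nuclei, and 9.73 and 8.98 CPM in the other nuclei. Mesenchymal nuclei had 11.1 and 10.7 CPM. Only 1 UMI per library was found in the supporting cell-like nuclei, which put their ratio at -2.57 (-7.88 to -0.07) and -1.49 (-6.80 to 1.02) on the log2 scale. The control interval includes 0.

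Read against all genes, the members' counts were as follows. Of the 7 genes tested, 3 were at least 2-fold higher in Koelliker organ-like than in other nuclei in both libraries (Ano1, P2ry1 and P2rx2), where 7.94% of 16603 genes were, and 1 was lower (P2rx7), where 11% were. In supporting cell-like nuclei 3 were higher (Ano1, P2rx2 and Itpr2), where 5.84% of 16203 genes were, and 1 was lower (Itpr3), where 9.57% were. In hair cell-like nuclei 2 were higher (Ano1 and P2rx2), where 11.2% of 17166 genes were, and 1 was lower (P2rx7), where 10.5% were. These shares have no test, and with 7 genes a single gene moves them by much. The 7 genes and the pathway list below were also chosen with earlier results of these data known. A count above the share of all genes therefore cannot be read as a result about either list.

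Several of these counts rest on how the nuclei were gated. Over the alternatives tried, Ano1 and P2rx7 in Koelliker organ-like nuclei and P2rx7 in hair cell-like nuclei stayed past 2-fold in both libraries, and each other call fell under 2-fold at least once in at least 1 library. In Koelliker organ-like nuclei P2ry1 gave 0.83 in the cOE library with gates set on thinned nuclei and 0.21 in the control library after thinning, and P2rx2 gave 0.0955 in the cOE library with such gates. In hair cell-like nuclei Ano1 turned to -1.45 and -0.51 with gates set on thinned nuclei. The shallower nuclei of that gate held 152 and 115 CPM, and the other nuclei of all depths 144 and 116 CPM. With nuclei under 10000 UMIs in both classes the ratio was 0.16 and 0.29, above 0 but under 2-fold.

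**Figure D3:**
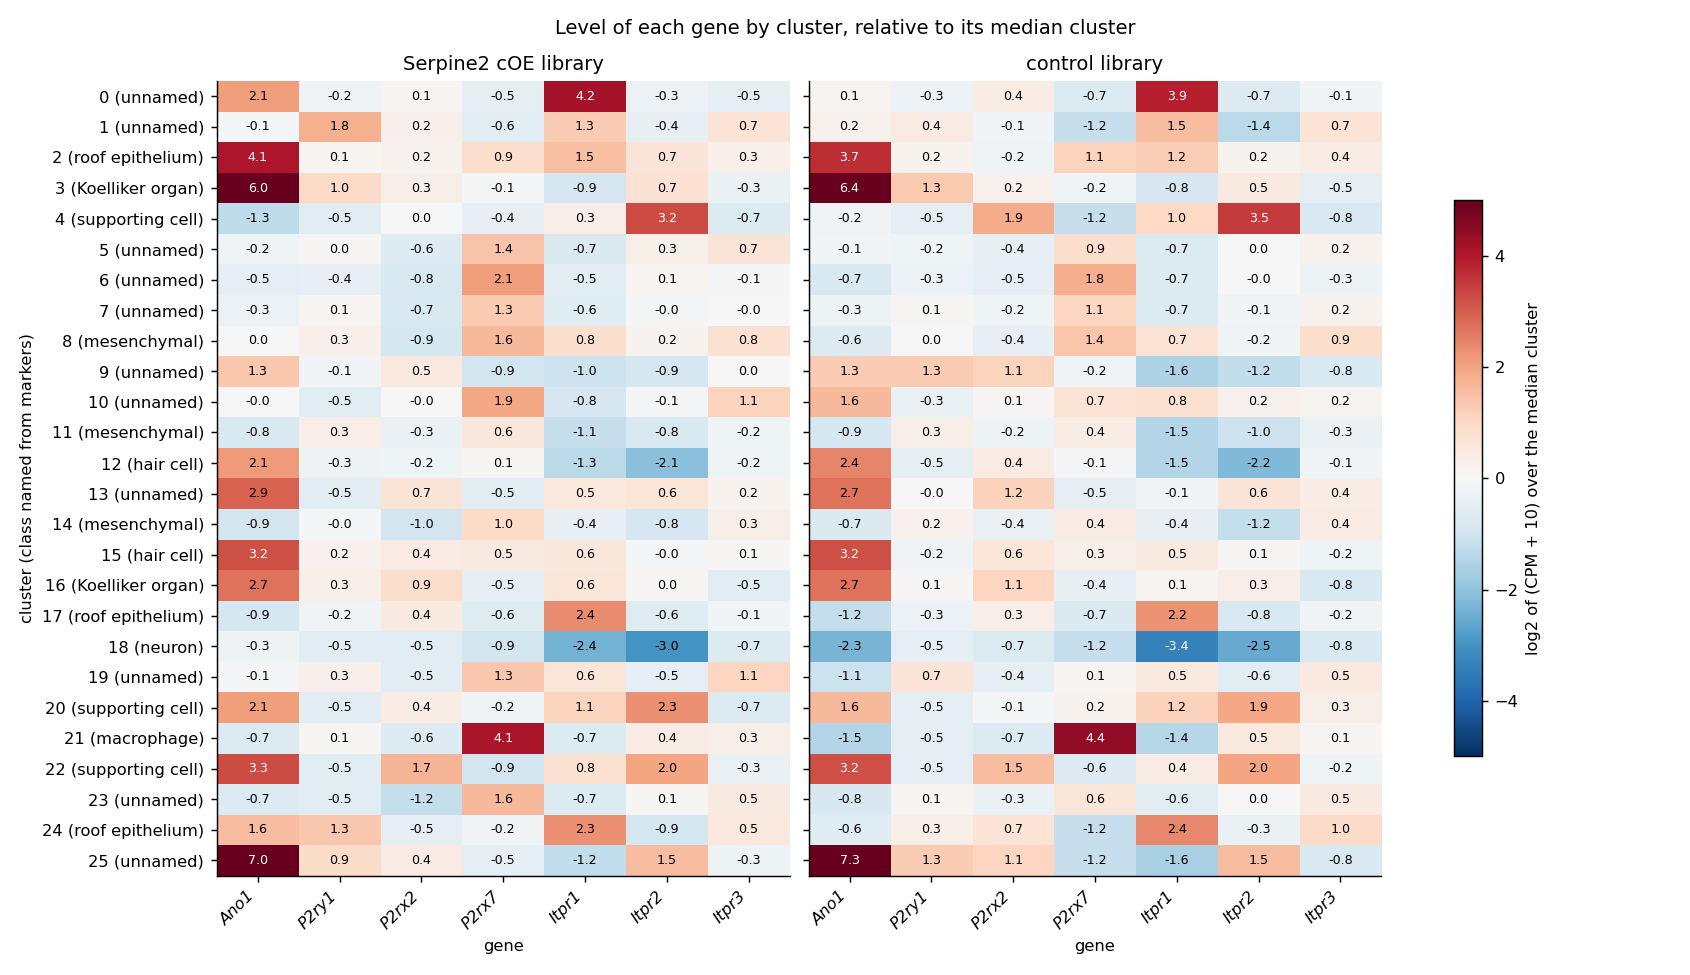
Level of the 7 genes (columns) in 26 clusters (rows) of each library, as log2 of CPM plus 10 over the gene's median cluster; colours saturate at 5 in either direction and the numbers give the values. Ano1 stands out in clusters 25 and 3, P2rx7 in cluster 21, Itpr1 in cluster 0 and Itpr2 in cluster 4.

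The profiles of the 7 genes over 53 combinations of cluster and library differed. The highest correlation among the members was Pearson's r = 0.57 between Ano1 and P2rx2, and the lowest -0.61 between P2rx2 and P2rx7, while Ano1 and Itpr1 had r = 0.02. Profiles share library and depth, so these are descriptions. The 5 genes most like Ano1 were Spock1, Cpa6, Cap2, Gad1 and Rasl11b (r from 0.85 to 0.89). P2rx7 was most like Plek, Ggta1, Abca9, Il16 and Zeb2 (0.86 to 0.91), P2rx2 most like Llgl2, Ildr1, 2310030G06Rik, Tmod1 and Ptpru (0.78 to 0.83), and Itpr2 most like Kremen1, Socs6, Utp14b, Siah1a and Gm15413 (0.80 to 0.86). P2ry1 followed Hif1a, Gask1a, Gm37035, Chrdl1 and Tspan8 less closely (0.62 to 0.70), as did Itpr3 its nearest genes Thsd4, Rapgef3, Glis2, Gm49173 and Ankrd44 (0.65 to 0.73). The gene most like Itpr1 was Gm44040 (0.92), followed by Tmc4, Cdh3, Gm43154 and Sh3bp4. Gm44040 is a non-coding gene at chr6:108495986-108509763 on the strand opposite Itpr1 and inside it, and Gm37035 (chr3:60640215-60911207) overlaps the start of P2ry1 on the opposite strand. Whether the counting kept reads of overlapping genes apart is not given in the sources used here.

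The wider ATP and calcium pathway was read from a list of 100 genes in 9 roles. In the Koelliker organ-like nuclei 85 could be tested, 15 were at least 2-fold higher than in other nuclei in both libraries and 17 lower, with median log2 ratios of -0.11 and -0.09 against -0.10 and -0.09 over all genes tested. Over all genes tested 7.94% were higher and 11% lower. The gap junction genes Gjb2 and Gjb6, which encode connexin 26 and connexin 30, were the 2 of 8 tested ATP release genes that were higher. Gjb6 had 159.7 and 120.4 CPM against 28.6 and 15.7 CPM in other nuclei, log2 ratios of 2.48 and 2.94. Among 7 tested receptors of the same families 4 were higher (P2rx6, P2ry2, P2ry12 and P2ry14), with P2ry2 at 11.4 and 8.56 CPM against 2.98 and 2.92 CPM, and 1 was lower (P2ry6).

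Of 15 tested genes for Gq proteins and phospholipase C 4 were higher, namely Gna14, Plcd4, Plch1 and Plch2, and 2 were lower (Plcb2 and Plcg2). The shares over all genes tested were 7.94% higher and 11% lower. Plch1, a phospholipase C, stood at 404 and 340.4 CPM against 37.7 and 25.8 CPM in other nuclei. Another anoctamin, Ano3, had log2 ratios of 3.72 and 3.66, while Ano4 had -3.61 and -3.02. Potassium and water channel genes Kcnj10, Kcnj16 and Aqp4 were higher together with the cotransporter gene Slc12a7, as 4 of 12 tested in their role. In the same role 2 were lower, the potassium channel genes Kcnma1 and Kcnn2. Of 9 tested genes for ATP breakdown 5 were lower (Entpd1, Entpd2, Entpd3, Enpp2 and Alpl) and none was higher. Over all genes tested 11% were lower in this gate. Entpd1 and Enpp2 were lower in supporting cell-like and hair cell-like nuclei too, Entpd3 in the former, and Entpd2 and Alpl in the latter. Entpd2 was higher in supporting cell-like nuclei. Of the 15 tested genes for store refill and calcium removal 4 were lower and none higher, including the sodium-calcium exchangers Slc8a1 and Slc8a3. No ryanodine receptor or store release partner was higher among 10 tested, and Irag1 and Itprip were lower.

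**Figure D4:**
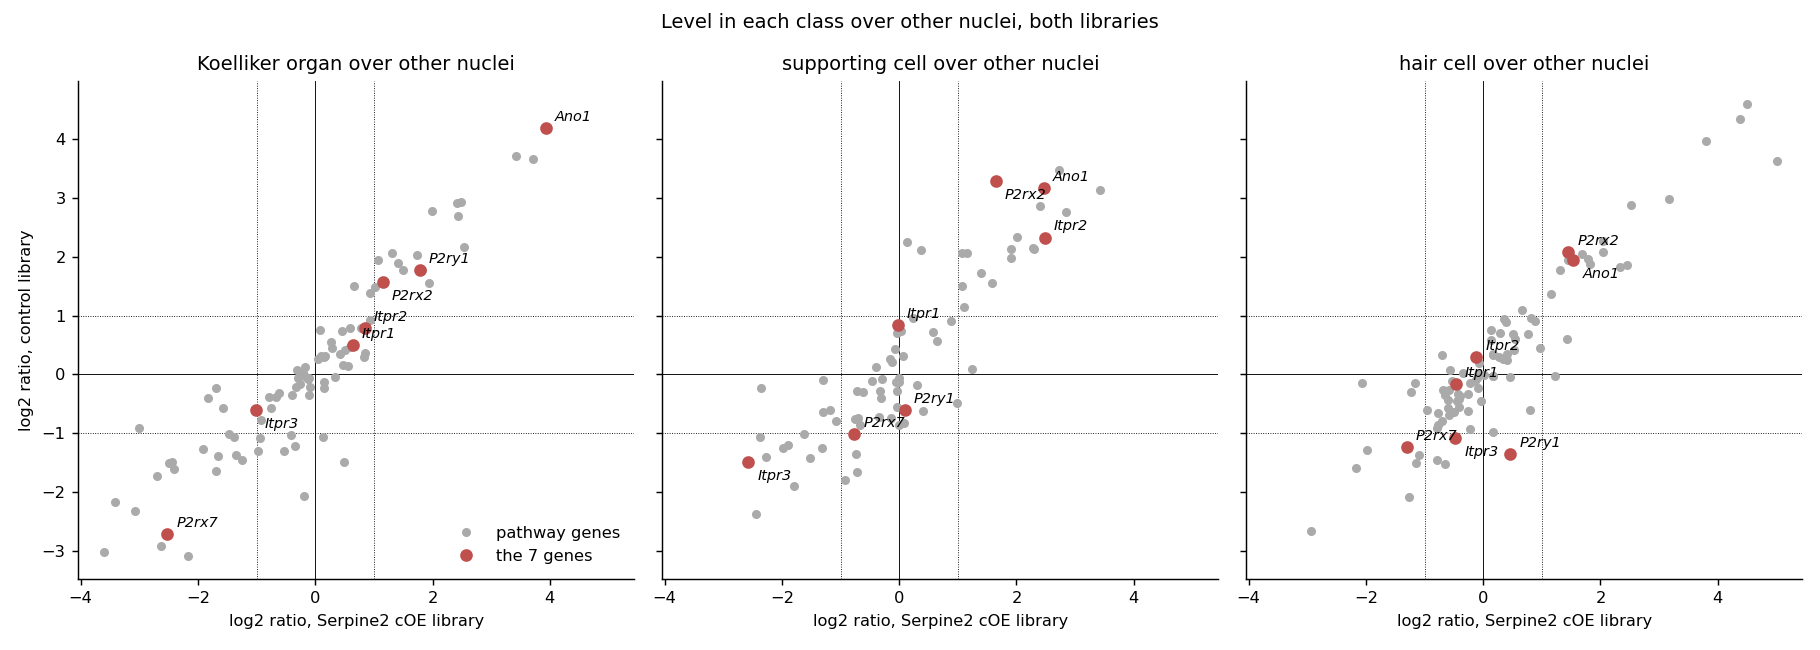
Log2 ratio of the level in each class over other nuclei in the Serpine2 cOE library (horizontal axis) and the control library (vertical axis) for the 7 genes (red, labelled) and the tested pathway genes (grey); dotted lines mark 2-fold. Ano1 lies at 3.93 and 4.19 in the Koelliker organ panel, where P2rx7 lies at -2.52 and -2.72.

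Supporting cell-like nuclei showed 15 of 82 tested pathway genes higher and 16 lower, where 5.84% of all genes tested were higher and 9.57% lower. Hair cell-like nuclei showed 16 of 85 higher and 6 lower, where 11.2% and 10.5% of all genes were. Many genes higher in Koelliker organ-like nuclei were higher here too. P2ry12, P2ry14, Plcd4, Plch1, Plch2 and Slc12a7 were higher in both supporting cell-like and hair cell-like nuclei. P2ry2, Kcnj10, Kcnj16 and Aqp4 were also higher in supporting cell-like nuclei, and P2rx6 and Ano3 in hair cell-like nuclei. In hair cell-like nuclei the calcium pumps Atp2a3, Atp2b2 and Atp2b3, the exchanger Slc8a1 and the ryanodine receptors Ryr1 and Ryr2 were higher, none of which was higher in the Koelliker organ gate.

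Between the libraries none of the 7 genes differed 2-fold in Koelliker organ-like nuclei, where 3.93% of 13602 genes with at least 20 UMIs did. Ano1 had a log2 ratio (cOE over control) of 0.05 (-0.01 to 0.11) there, but -0.26 (-0.30 to -0.22) within cluster 3 and -0.20 (-0.31 to -0.09) within cluster 25, so control nuclei of these clusters held slightly more. Other clusters went the other way: of 22 clusters with at least 20 Ano1 UMIs 7 had an interval above 0 and 3 below, and 5 were past 2-fold. They include cluster 0 at 2.30 (260 UMIs against 34), cluster 24 at 2.70 (23 against 3) and cluster 10 at -1.71 (7 against 130), and cluster 2 stood at 0.50. The P2ry1 ratio was -0.06 (-0.72 to 0.63), that of P2rx2 0.60 (-0.16 to 1.42), that of P2rx7 0.10 (-1.02 to 1.30), that of Itpr2 -0.07 (-0.26 to 0.13) and that of Itpr3 -0.29 (-1.49 to 0.96). For P2rx2, P2rx7 and Itpr3 the interval also holds a 2-fold difference, so equality is not shown. By cluster P2rx2 was past 2-fold in cluster 3, at 1.04 (0.21 to 1.96) from 60 UMIs against 15, in cluster 2 at 1.99 and in cluster 17 at 1.05. After thinning, the P2ry1 ratio of the Koelliker organ gate was 1.95, from only 22 UMIs against 3. Itpr1 was higher in the cOE library, 0.36 (0.25 to 0.47), in a gate that took 10.5% of its nuclei from cluster 0 in that library and 12.9% in the control library. Whole clusters, which include nuclei outside the gate, gave 0.17 (0.11 to 0.24) for cluster 0, -0.41 (-0.66 to -0.15) for cluster 1 and -0.17 (-0.39 to 0.07) for cluster 3. The gate's own nuclei held 3917 CPM in the cOE and 2261 CPM in the control library in cluster 0. In cluster 3 they held 152 CPM (255 UMIs, 61 of them in 1 nucleus) and 80.6 CPM (66 UMIs, at most 3 in 1 nucleus). In cluster 1 they held 679 and 773 CPM, with 41 of the 75 control UMIs in 1 nucleus.

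In supporting cell-like nuclei 4 of the 7 genes had enough UMIs and none was 2-fold apart, against 6.86% of 7935 genes. Itpr1 was lower in the cOE library there, -0.64 (-0.91 to -0.37), and Ano1 likewise, -0.40 (-0.60 to -0.19), in a gate whose Ano1 came from 9 and 8 nuclei of cluster 25 in large part. Within clusters 4, 20 and 22 alone the Ano1 ratio of that gate was 1.55, the other way, from 84 UMIs against 12. The Itpr2 ratio was 0.03 (-0.23 to 0.31), while P2rx2 with 14 and 11 UMIs gave -0.62 (-1.86 to 0.67). In cluster 4 alone Itpr1 gave -0.80 (-1.29 to -0.32) and Itpr2 -0.48 (-0.74 to -0.23), and in cluster 22 both intervals included 0.

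In hair cell-like nuclei P2ry1 was past 2-fold, as 1 of the 7 against 3.59% of 15752 genes. Its ratio of 1.75 (0.59 to 3.09) came from 30 and 8 UMIs. Of the 30 UMIs 28 lay in nuclei with at least 10000 UMIs, and in the shallower nuclei there were 2 UMIs against 3, which turned the ratio to -1.06. Itpr2 was lower in the cOE library, -0.53 (-0.71 to -0.35), as in cluster 15, the larger hair cell cluster, at -0.38 (-0.54 to -0.21). Ano1 gave -0.10 (-0.19 to -0.01) and Itpr1 -0.07 (-0.18 to 0.04). In the other nuclei P2rx2 was past 2-fold with 1.03 (0.52 to 1.55), 103 UMIs against 48, where 3.46% of 18330 genes were. It fell just under 2-fold with named clusters (0.91), without doublet removal (0.99), after thinning (0.998) and in nuclei under 10000 UMIs (0.99). With at least 200 genes and at most 10% mitochondrial UMIs it was 0.95, and with nuclei of equal weight 0.73. With 1 pooled library on each side, genotype, animals and library preparation cannot be told apart for any of these differences.

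**Figure D5:**
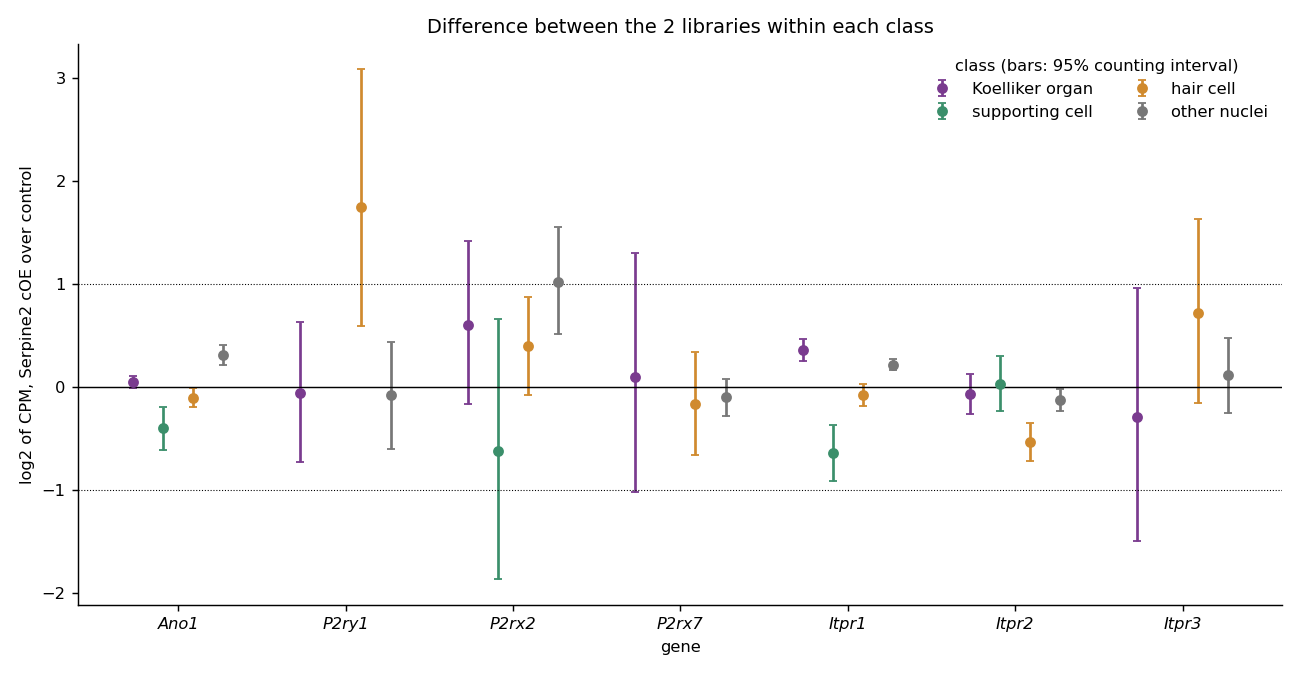
Log2 ratio of CPM, Serpine2 cOE over control (vertical axis), for each gene with at least 20 UMIs in a class, coloured by class, with 95% counting intervals; the dotted lines mark 2-fold. Ano1 in the Koelliker organ gate sits at 0.05, Itpr1 at 0.36 there and at -0.64 in the supporting cell gate, and P2ry1 in hair cell-like nuclei at 1.75.

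Of the pathway genes 5 of 67 were past 2-fold between the libraries in Koelliker organ-like nuclei (Orai3 higher, Entpd1, Ryr2, Ryr3 and Atp2b4 lower in the cOE library), against 3.93% of all genes tested. They were 2 of 40 in supporting cell-like nuclei (Ano3 higher, Enpp1 lower), against 6.86%, and 2 of 78 in hair cell-like nuclei (Alpl and Orai3, both higher), against 3.59%. All rested on few UMIs. Ryr3, a ryanodine receptor, had 15 UMIs against 23 in Koelliker organ-like nuclei, a log2 ratio of -1.45 (-2.49 to -0.45), and the intervals of Entpd1, Orai3 and Atp2b4 there included 0.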

How the data were processed

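Nuclei of 2 libraries, 1 per group, were analysed. The authors deposited counts, whole UMIs for each gene and barcode, written by Cell Ranger 8.0.1 per the file headers. Per the submitters' processing notes STAR was also used, in a version not given, with the build mm10, whereas the design text names GRCm39; no level depends on coordinates. Positions come from GENCODE vM39, in which 33185 of 33696 gene identifiers matched, and promoters from RefSeq on GRCm38.p6.

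Nuclei with at least 500 genes and at most 5% mitochondrial UMIs were kept, and per library the top 0.8% of Scrublet scores for each 1000 barcodes were removed. UMIs were summed per class and library with scipy 1.17.1, with exact Poisson intervals, exact conditional intervals for ratios and Clopper-Pearson intervals for shares (95%). No test was run, since each group has 1 library. A count of genes took those with at least 20 UMIs over the groups compared that were past 2-fold (for classes, in both libraries). Class marker gates were set per nucleus. Leiden clusters (scanpy 1.11.5, 3000 variable genes without the 7, 50 components, 15 neighbours, resolution 1) were named by the same markers, under a rule made stricter after the first names were seen. Like genes were ranked by Pearson's r of log2(CPM + 10) over profiles with at least 50000 UMIs, among genes with at least 200 UMIs. TMM factors came from edgeR 4.0.16. The scripts were tested on simulated counts.

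Genes named are the 7, the pathway genes past 2-fold between libraries, and the 5 most like each member. The plan was also to name the 3 pathway genes of each role with the largest ratio in the Koelliker organ. That was not done for every role, and no adenosine receptor is named. Further names, including pathway genes that were lower, were chosen after their values were seen. The members and lists were chosen with earlier results of these data known.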

Additional observations from a re-analysis of the deposited data

Results flagged for a closer look

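The direction of Itpr1 between the libraries differed by class. On the log2 scale its cOE over control ratio was 0.36 (0.25 to 0.47) in Koelliker organ-like nuclei and -0.64 (-0.91 to -0.37) in supporting cell-like nuclei, and neither counting interval included 0. The difference between the classes was not tested, because each group has 1 library. Over the alternatives the supporting cell ratio ran from -0.71 to 0.07, the latter with a lead of 1 marker, and the Koelliker organ ratio fell as low as 0.0364 with named clusters in place of gates. Both gates mix clusters with very different Itpr1 levels: supporting cell-like nuclei outside clusters 4, 20, 22 and 25 held 549.9 CPM in the cOE and 1004 CPM in the control library, and those inside clusters 4, 20 and 22 held 368 and 424 CPM.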

How the results depend on the processing

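No paired analysis was possible because each group has 1 library, so the replicate numbers pair nothing. Of the values for the 26 class ratios past 2-fold, 313 of 355 stayed past 2-fold in the same direction, and for the 2 library ratios past 2-fold 20 of 27 did. The Ano1 log2 ratio of Koelliker organ-like over other nuclei was, in the cOE and the control library, 4.77 and 4.57 with at least 2 markers, 3.15 and 3.80 with at least 4, 3.52 and 3.87 with a lead of 1 marker, 2.08 and 2.61 with gates set on thinned nuclei, 3.63 and 4.41 with named clusters, 3.57 and 4.01 without doublet removal, and 4.45 and 4.87 with gate and named cluster together. TMM scaling gave 4.003 in the cOE library. In the control library it was 4.43 after thinning, 4.52 in nuclei under 10000 UMIs and 4.42 with nuclei of equal weight. The Ano1 library ratio in that gate was -0.0457 with a lead of 1 marker, -0.0196 with gates set on thinned nuclei, -0.25 with named clusters, -0.11 with gate and cluster together, -0.0727 in nuclei under 10000 UMIs and -0.0491 with equal weight. The Itpr2 ratio of supporting cell-like over other nuclei was 1.94 and 1.99 with a lead of 1 marker, 1.28 and 0.88 with gates set on thinned nuclei, 1.86 and 1.95 after thinning, 3.12 and 3.03 with gate and cluster together, 2.005 and 1.77 with equal weight, and 2.86 with named clusters in the control library. The P2ry1 ratio of Koelliker organ-like nuclei was 0.83 with gates set on thinned nuclei in the cOE library, and 3.096 and 0.21 after thinning. Of the ratios past 2-fold, 5 values of 4 class ratios and 1 of a library ratio changed sign: Ano1 in hair cell-like over other nuclei with gates set on thinned nuclei (-1.45 and -0.51), Ano1 in supporting cell-like nuclei of the control library with gate and cluster together (-0.36), P2rx7 in the same nuclei after thinning (0.29) and with equal weight (0.16), and the P2ry1 library ratio in hair cell-like nuclei under 10000 UMIs (-1.06). Of the ratios under 2-fold, 25 values of 8 class ratios and 54 of 17 library ratios did so, among them Itpr1 in Koelliker organ-like over other nuclei (-1.78 in the cOE library with named clusters, -1.75 in the control library with gate and cluster together), P2ry1 in hair cell-like over other nuclei of the cOE library with gates set on thinned nuclei (-2.26), and the library ratios of Ano1 in supporting cell-like nuclei with gate and cluster together (1.55) and of Itpr3 in hair cell-like nuclei after thinning (-1.87). The number of members past 2-fold between libraries became 1 in Koelliker organ-like nuclei after thinning, 2 in supporting cell-like nuclei with gate and cluster together, and 0 in hair cell-like nuclei with gates set on thinned nuclei, after thinning and with at least 50 UMIs. Gate and cluster together and nuclei under 10000 UMIs were added after seeing the data. For all of these the cause was not tested. Depth limits P2ry1, P2rx2 and Itpr3, which had few UMIs per class.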
